A study of Mus musculus with 7 samples.

Results

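Muscle contracts when an action potential releases calcium inside the fibre, and 34 genes of that machinery were followed in RNA of cultured muscle stem cells (MuSCs) from WT and homozygous *Jag2sm* mice. The members were chosen by function (release channels, the voltage sensor, triad scaffold proteins, calcium pumps, calcium stores, modulators, store-operated entry, membrane excitability and a cytosolic buffer) and were taken from 56748 genes listed in the count files, by Ensembl identifier. The list was made with earlier results of these data known, and all 34 had at least 1 count. The sum of their normalized counts ran from 4518 to 8866 in the 3 WT libraries and from 1355 to 2115 in the 4 *Jag2sm* libraries. Of the 29 members with enough counts to be tested, 20 were lower in *Jag2sm* and 0 were higher.

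In a muscle fibre, the voltage sensor of the T-tubule membrane touches the release channel of the sarcoplasmic reticulum at a junction called the triad, and depolarization of the sensor opens the channel. Calcium bound in the reticulum then floods the cytosol and starts contraction, and pumps return it to the store. Proliferating myoblasts hold little of this apparatus, which is built as the cells leave the cell cycle, fuse into myotubes and mature.

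MuSCs were sorted magnetically from hind limb muscle of adult mice as cells without CD31, CD45 and Sca1 that carried Integrin α7, and were kept in growth medium on collagen. *Jag2sm* is a hypomorphic missense allele in the first EGF repeat of JAG2, a NOTCH ligand, and all cells of the homozygous mice carry it. The labels of these samples write the genotype as *Jag2*-/-. Each RNA sample became 1 Nanopore direct cDNA library, and the barcoded libraries shared the same PromethION flow cells. The strain of the WT mice and the sex of each sample were not used here. Nothing in the labels says that the samples of a group came from separate animals, so the p-values measure only the spread between these samples, which may be technical.

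Libraries held from 187834 (WT 1) to 1937581 (*Jag2sm* 3) counts on genes. WT 1 stood apart: it was the shallowest, and 45.1% of its aligned reads were assigned to no gene, against 20.8% to 25.7% in the others. Reads without an alignment made up 45.95% to 50.8% of *Jag2sm* 1, 2 and 4 but 3.07% of *Jag2sm* 3 and 2.44% to 3.24% of the WT libraries. *Jag2* itself measured 80.7, 113.8 and 115.7 normalized counts in WT and 42.4, 78.8, 71.9 and 77.4 in *Jag2sm*. The groups did not overlap, but the difference of -0.64 on the log2 scale did not pass the test (adjusted p = 0.166, edgeR), and a missense allele need not change the level of its RNA.

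Here a normalized count is a CPM value (counts scaled to a common library size) with the library size adjusted by the TMM method, and values are listed as WT 1, 2 and 3 and then *Jag2sm* 1, 2, 3 and 4. A log2 fold change is *Jag2sm* minus WT with its standard error, and each adjusted p comes from the edgeR quasi-likelihood test with Benjamini-Hochberg adjustment over all 9489 genes tested. A gene was called at an adjusted p under 0.05. A count of 3 corresponds to 17.3 normalized counts in WT 1 and to between 1.48 and 4.24 in the others, so low values in WT 1 are coarse.

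Lower calls took in 58.8% of the 34 members (20 of the 29 tested), where 4.84% of all genes tested were called lower. No member was called higher, where 1.42% of all genes tested were. The members were picked with earlier results of these data known, so the shares here describe the list and do not test it. At an unadjusted p under 0.05, edgeR gave 24 members lower and 1 higher (*Itpr1*). The share of all genes tested that passed this looser threshold was not counted. DESeq2 and limma-voom also called 0 members higher. Among tested members, every *Jag2sm* library lay below every WT library for 23, where 12.2% of all genes tested had this order, and the reverse order held for 0, where 10.3% of all genes tested had it. The median log2 fold change was -2.19 over the 29 tested members and 0.05 over all genes tested. Without a filter on low counts the median over all 34 members was -1.86. *Cacna1s* and *Scn4a* passed the filter only through WT libraries, and *Atp2a1*, *Casq1* and *Camk2a* also had fewer than 3 *Jag2sm* libraries over its cutoff, so for these the filter itself favoured a lower level in *Jag2sm*. In bulk RNA, fewer cells that express a gene and less RNA per cell cannot be told apart.

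**Figure D1:**
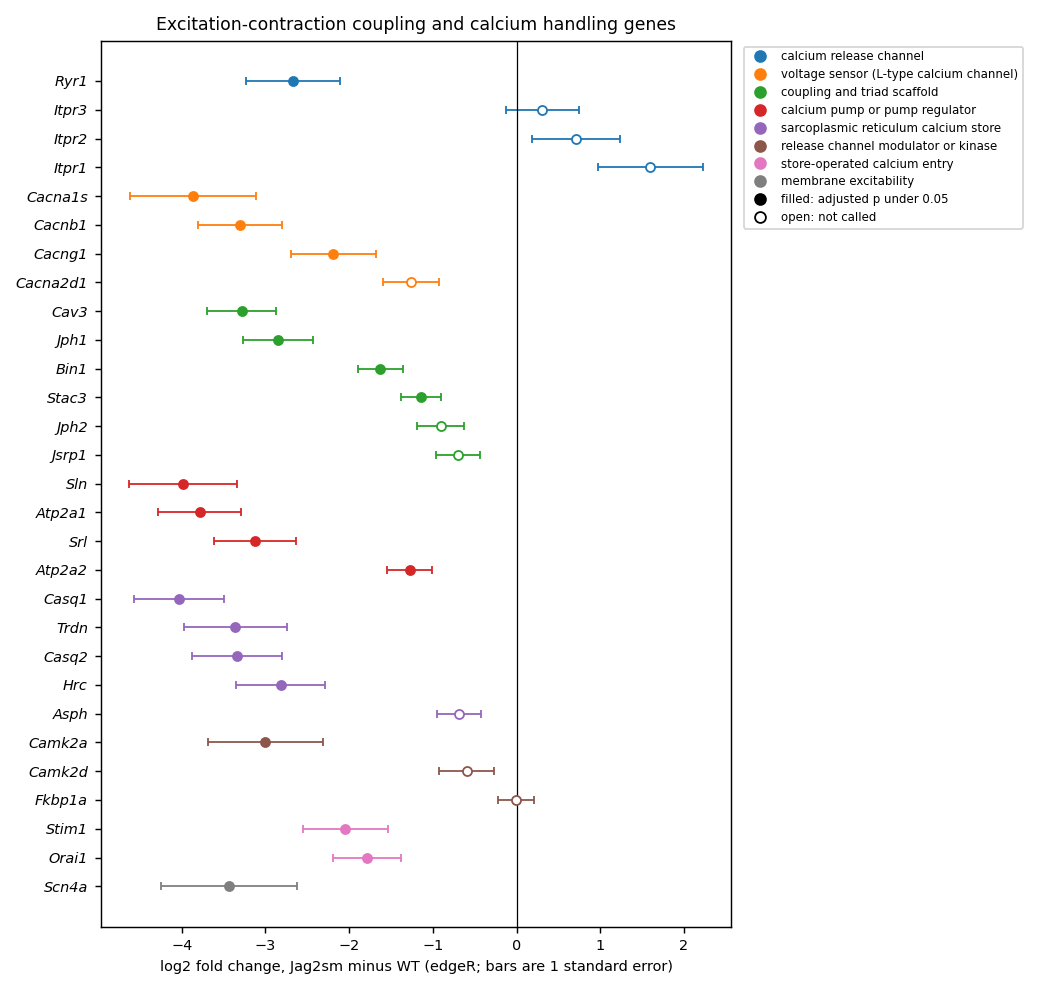
The horizontal axis is the log2 fold change of each tested member (*Jag2sm* minus WT, edgeR), bars are 1 standard error, colours are roles, and filled points passed an adjusted p of 0.05. All 20 filled points lie left of 0, from *Casq1* at -4.03 to *Stac3* at -1.14, and only the 3 inositol trisphosphate receptor genes lie right of it, of which *Itpr3* (without *Jag2sm* 3), like *Fkbp1a* at -0.01, changed sign in other settings.

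Markers of differentiated muscle moved in the same direction in these libraries. Summed over 15 differentiated muscle genes, levels were 24913 to 43844 in WT and 1821 to 7612 in *Jag2sm*, and 12 of the 13 tested were called lower. For 7 adult fibre genes the sums were 2773, 662 and 515.0 in WT 1, 2 and 3, with WT 1 far above the others. In *Jag2sm* they were 48.8 to 173.6, and all 6 tested genes were called lower. Of these, *Myh4*, *Myh7*, *Mb* and *Ckmt2* lay under the filter cutoff in every *Jag2sm* library. They were tested only through WT libraries, so the filter favoured a lower level in *Jag2sm*. Genes of muscle stem cells and myoblasts, among them *Pax7*, *Myf5* and *Myod1*, were detected in every library. That list of 8 genes had overlapping sums of 1239 to 1611 in WT and 1253 to 1638 in *Jag2sm*. Its member *Chrdl2* had no count in WT 1 or in any *Jag2sm* library. *Myod1* was the largest part of each sum, and single genes moved both ways. None of the 7 tested genes was called, with log2 fold changes from -0.63 (*Itga7*) to 1.03 (*Vcam1*). *Pax7* was higher in every *Jag2sm* library (100 to 172) than in every WT library (28.8 to 95.7). Of all genes tested, 10.3% had this order, and *Pax7* did not pass the test (adjusted p = 0.174, edgeR). In the lists for other cell types, *Kdr* and *Tie1* (endothelial), *Lum* and *Dpt* (fibro-adipogenic), *Ptprc*, *Adgre1*, *Tyrobp* and *Lyz2* (immune) and *Cdh19* (glial) had no count in any library, while others were detected, such as *Tek* at up to 11.5, *Ly6a* at up to 19.3 and *Cd34* at up to 28.5. Summed over each list, endothelial genes reached 4.74 to 11.5 in WT and 7.88 to 17.0 in *Jag2sm*, fibro-adipogenic genes 5.76 to 25.9 and 23.7 to 45.6, immune genes 0 to 3.23 and 1.97 to 6.52, and glial genes 0 to 4.74 and 1.97 to 12.7. Mural marker genes summed to 59.7 to 86.5 in WT and 68.5 to 687 in *Jag2sm*, and the highest sum came from *Rgs5*, at 645 in *Jag2sm* 1. Another mural gene, *Abcc9*, was called lower (log2 fold change -3.71, adjusted p = 0.0139, edgeR), but it also passed the filter only through WT libraries. Tenocyte genes summed to 115.3 to 128.0 in WT and 30.1 to 76.6 in *Jag2sm*. Nearly all of it was *Scx*, which was called lower (-1.34, adjusted p = 0.0223, edgeR). The part of any of these cell populations in the results below was not tested.

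To show the regions upstream of the members that the results turn on, the 250 bases before the GENCODE start site are printed for the called member with the largest fall in each role that had at least 3 called members (GRCm39, given on the strand of the gene). Capitals mark CANNTG, the letters of the E-box to which myogenic basic helix-loop-helix factors bind, and the consensus of the MEF2 factors, searched on both strands (either pattern reads alike on both). The E-box and MEF2 matches shared 0 bases. *Sln* lies at chr9:53757198-53757447 on the plus strand, *Cav3* at chr6:112436216-112436465 on the plus strand, *Casq1* at chr1:172047753-172048002 on the minus strand and *Cacna1s* at chr1:135980009-135980258 on the plus strand.
Sln: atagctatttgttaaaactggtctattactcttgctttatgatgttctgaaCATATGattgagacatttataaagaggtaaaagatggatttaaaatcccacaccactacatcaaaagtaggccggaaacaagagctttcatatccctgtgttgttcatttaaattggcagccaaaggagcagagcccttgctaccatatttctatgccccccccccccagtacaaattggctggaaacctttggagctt
Cav3: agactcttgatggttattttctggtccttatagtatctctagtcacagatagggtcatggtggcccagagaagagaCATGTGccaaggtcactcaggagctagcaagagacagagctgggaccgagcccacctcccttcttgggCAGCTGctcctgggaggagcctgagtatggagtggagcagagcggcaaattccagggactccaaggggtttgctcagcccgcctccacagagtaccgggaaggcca
Casq1: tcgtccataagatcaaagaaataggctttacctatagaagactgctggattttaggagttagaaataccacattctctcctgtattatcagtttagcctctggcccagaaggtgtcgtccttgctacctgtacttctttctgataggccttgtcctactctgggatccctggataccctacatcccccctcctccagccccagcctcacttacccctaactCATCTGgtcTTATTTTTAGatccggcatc
Cacna1s: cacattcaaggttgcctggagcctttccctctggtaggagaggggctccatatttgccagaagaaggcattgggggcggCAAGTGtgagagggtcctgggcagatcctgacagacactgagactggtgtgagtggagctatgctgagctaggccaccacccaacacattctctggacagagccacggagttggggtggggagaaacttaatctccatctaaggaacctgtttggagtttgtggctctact

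*Cav3* held a pair of E-boxes, at -174 and -106 from the start site, of which the second reads CAGCTG. *Casq1* held 1 at -29 beside a MEF2 match at -20. *Sln* and *Cacna1s* each held 1, at -199 and -171. Such letters are common: CANNTG was found in 64.8% of the promoters of 21751 protein-coding genes, in 67.6% of the 34 members and in 70.0% of those called lower. CAGCTG was found in 11.9% of all these promoters, in 20.6% of members and in 20.0% of those called lower (4 of 20). The MEF2 consensus was found in 2.80% of all, in 8.82% of members, in 5.00% of those called lower (1 of 20) and in 14.3% of those not called or not tested (2 of 14). A match is a description of these letters, not evidence that a factor binds there.

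Of the 5 release channels, the ryanodine receptor of skeletal muscle fell. *Ryr1*, which forms the channel that opens onto the triad, measured 467, 92.4 and 101 in WT and 21.2, 28.3, 21.7 and 48.9 in *Jag2sm*. All *Jag2sm* libraries lay below all WT libraries, and WT 1 was far above the other WT libraries. The log2 fold change was -2.67 ± 0.564 (n = 3 and 4, adjusted p = 0.0192, edgeR), or 6.38-fold lower. Without WT 1 it was -1.69 and still called, and without *Jag2sm* 1 or *Jag2sm* 2 the call was lost (adjusted p = 0.0559 and 0.0667, from a range of 3.59e-17 to 0.0667 over the other settings tried). The low end came from the edgeR fit with no filter alone, and the next lowest value was 7.02e-05, with DESeq2. The fit with no filter also gave the low end of the ranges below for the members *Cacng1*, *Cacna2d1*, *Stac3*, *Jph2*, *Camk2a*, *Stim1*, *Orai1* and *Scn4a*. *Ryr3*, the paralog found in developing muscle, was too low to test, with 8 counts over the WT libraries and 6 over the *Jag2sm* libraries.

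The inositol trisphosphate receptors, release channels of many non-muscle cells, were low, and none of the 3 was called in either direction by edgeR. *Itpr1* measured 5.76, 3.23 and 3.79 in WT and 15.6, 9.67, 16.8 and 3.26 in *Jag2sm*, and *Jag2sm* 4 lay within the WT range while the other *Jag2sm* libraries lay above it. Its log2 fold change of 1.60 ± 0.626 was not called (adjusted p = 0.182, edgeR), and it passed without *Jag2sm* 4, at 1.91 (adjusted p = 0.0419, in a range of 0.0419 to 0.436 over the 10 other settings that gave a value). Without *Jag2sm* 1, 2 or 3 it had too few counts to be tested. *Itpr2* read 0, 7.11 and 11.4 in WT and 5.66, 17.3, 18.2 and 8.97 in *Jag2sm* (log2 fold change 0.71 ± 0.527, adjusted p = 0.509, edgeR). Its groups overlapped, as did those of *Itpr3*. For *Itpr3* the values were 11.5, 7.11 and 9.48 in WT and 9.90, 8.29, 16.3 and 6.52 in *Jag2sm*, with a log2 fold change of 0.31 ± 0.439 (adjusted p = 0.760, edgeR). These 3 passed the filter with fewer than 3 WT libraries over its cutoff. *Itpr1* passed only through *Jag2sm* libraries, so for it the filter favoured a higher level in *Jag2sm*.

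All 4 subunit genes of the voltage sensor, the L-type calcium channel of the T-tubule, had every *Jag2sm* library below every WT library, and 3 were called. *Cacna1s*, the pore and sensor subunit, measured 80.7, 14.9 and 21.8 in WT and 0, 4.15, 0.985 and 1.63 in *Jag2sm*. It had no count in *Jag2sm* 1, and the *Jag2sm* values rest on few reads. The log2 fold change was -3.87 ± 0.751 (adjusted p = 0.0139, edgeR) and ran over -4.67 to -3.24 in the other settings, from -4.67 without *Jag2sm* 2 to -3.24 without WT 1, with the call kept in all of them. *Cacnb1*, the beta subunit that anchors the channel inside the membrane, gave 352, 119 and 129 in WT and 26.9, 13.1, 7.88 and 30.2 in *Jag2sm*. Its level in *Jag2sm* 3 was the lowest of all 7 libraries, and it was 9.88-fold lower (-3.30 ± 0.499 on the log2 scale, adjusted p = 0.00539, edgeR).

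The gamma subunit *Cacng1* measured 357, 190.0 and 238 in WT and 62.2, 46.3, 13.8 and 104 in *Jag2sm*. *Jag2sm* 4 came nearest to WT and *Jag2sm* 3 was far below the rest. It was called (-2.19 ± 0.509, adjusted p = 0.0298, edgeR), but the call was lost without WT 1, WT 2, WT 3, *Jag2sm* 1 or *Jag2sm* 2 (adjusted p = 0.0711, 0.0561, 0.0800, 0.0667 and 0.100, within a range of 4.75e-12 to 0.100 over the other settings). *Cacna2d1*, the extracellular auxiliary subunit that is also made outside muscle, measured 184, 77.6 and 78.7 in WT and 39.6, 35.9, 33.5 and 60.3 in *Jag2sm*. Its groups did not overlap, yet the log2 fold change of -1.26 ± 0.335 just missed the threshold (adjusted p = 0.0518, edgeR). It was called by DESeq2, without the filter, with the replicate block and without *Jag2sm* 4, within a range of 0.000552 to 0.148 over the other settings.

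Of the 7 scaffold genes of the triad and T-tubule, 6 were tested and 4 were called lower. *Cav3*, muscle caveolin, which shapes the T-tubule membrane, measured 559, 291 and 377 in WT and 49.5, 37.3, 15.8 and 65.2 in *Jag2sm*. Even its highest *Jag2sm* library, *Jag2sm* 4, was well under its lowest WT library. It was 9.75-fold lower (-3.29 ± 0.417 on the log2 scale, adjusted p = 0.00285, edgeR), with the call kept in every setting tried. *Jph1*, a junctophilin that ties the reticulum to the T-tubule, measured 121, 58.2 and 69.2 in WT and 12.7, 11.1, 3.94 and 16.3 in *Jag2sm* (-2.85 ± 0.421, adjusted p = 0.00539, edgeR). Again *Jag2sm* 3 was the lowest library, and the call was kept in every setting.

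*Bin1*, which bends membrane into tubules, measured 801, 511 and 451 in WT and 206, 164, 145 and 237 in *Jag2sm*. The gap between the groups was wide against the spread within *Jag2sm*, and the fall was 3.09-fold (-1.63 ± 0.271, adjusted p = 0.00774, edgeR). *Stac3*, an adaptor the voltage sensor needs to reach the membrane and to open the release channel, measured 121, 112 and 135 in WT and 42.4, 53.9, 47.3 and 77.4 in *Jag2sm*. It was the 1 called member in which WT 1 was not the highest library. Its log2 fold change of -1.14 ± 0.235 (adjusted p = 0.0176, edgeR) was the smallest fall among the called members, and the call was lost without WT 2, WT 3 or *Jag2sm* 2 (adjusted p = 0.0538, 0.0843 and 0.0677, within 0.00157 to 0.0843 over the other settings).

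The other scaffold genes were not called. *Jph2*, the junctophilin shared with the heart, measured 282, 177 and 176 in WT and 66.5, 115, 140.4 and 112 in *Jag2sm* (-0.91 ± 0.279, adjusted p = 0.0862, edgeR), and it was called only without the filter (adjusted p = 0.0474, within 0.0474 to 0.212 over the other settings). *Jsrp1*, a junctional protein of the reticulum, measured 149.9, 231 and 247 in WT and 115, 120.2, 104 and 188 in *Jag2sm* (-0.70 ± 0.264, adjusted p = 0.163, edgeR). *Jph2* kept its groups apart, while for *Jsrp1* the library *Jag2sm* 4 lay above WT 1. *Mtm1*, a lipid phosphatase needed for T-tubule upkeep, had 15 counts over the WT libraries and 26 over the *Jag2sm* libraries and was not tested.

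All 4 genes of the calcium pumps and their regulators were called lower. *Atp2a1* encodes SERCA1, the pump of fast fibres, and measured 208, 62.1 and 74.9 in WT and 8.48, 6.91, 3.45 and 11.4 in *Jag2sm*. Every *Jag2sm* value was far under every WT value, and the fall was 13.8-fold (-3.79 ± 0.494 on the log2 scale, adjusted p = 0.00311, edgeR), with the call kept in every setting. *Atp2a2* encodes SERCA2, the pump of slow fibres, of the heart and, in another splice form, of most cells, and measured 513, 296 and 248 in WT and 169.7, 121, 136 and 142 in *Jag2sm*. Its groups were also apart but closer, and its fall was 2.42-fold (-1.28 ± 0.269, adjusted p = 0.0192, edgeR). The call on *Atp2a2* was lost without *Jag2sm* 2 (adjusted p = 0.0827, within 0.000677 to 0.0827 over the other settings). Exons of *Atp2a1* overlap those of *Rabep2*, and exons of *Atp2a2* those of *Anapc7*, on the opposite strand, and reads from such stretches cannot be assigned with certainty when the strand setting is unknown.

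*Sln* encodes sarcolipin, a small peptide that uncouples the pump, and measured 484, 123 and 117 in WT and 12.7, 17.3, 2.96 and 23.6 in *Jag2sm*. WT 1 stood far above WT 2 and WT 3, which were alike, and *Jag2sm* 3 was the lowest. The log2 fold change was -3.98 ± 0.645 (adjusted p = 0.00697, edgeR), and -3.15 without WT 1, with the call kept in every setting. *Srl* encodes sarcalumenin, a calcium-binding protein of the reticulum that stabilizes the pump, and measured 755, 368 and 414 in WT and 60.8, 53.2, 17.2 and 103 in *Jag2sm*. Its groups were far apart, and the fall was 8.70-fold (-3.12 ± 0.488, adjusted p = 0.00615, edgeR).

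Of the 5 genes of the calcium store and its link to the release channel, 4 were called lower. *Casq1*, the calsequestrin that buffers calcium in fast fibres, showed the largest estimated fall of any called member, though by less than its standard error from *Sln*. It measured 225, 111 and 93.9 in WT and 5.66, 10.4, 1.48 and 15.5 in *Jag2sm*, with *Jag2sm* 3 at the level of a few reads. The log2 fold change was -4.03 ± 0.534 (adjusted p = 0.00324, edgeR). *Casq2*, the calsequestrin of slow fibres and of the heart, measured 1055, 526 and 585 in WT and 107, 53.9, 16.8 and 110.1 in *Jag2sm*. *Jag2sm* 1 and *Jag2sm* 4 were alike and *Jag2sm* 3 was again the lowest, and the fall was 10.1-fold (-3.34 ± 0.539, adjusted p = 0.00686, edgeR).

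*Trdn* encodes triadin, which holds calsequestrin to the release channel, and measured 398, 135 and 124 in WT and 15.6, 13.8, 5.42 and 44.8 in *Jag2sm*. The difference was -3.36 ± 0.616 on the log2 scale (adjusted p = 0.0110, edgeR), -2.76 without WT 1 and -4.21 without *Jag2sm* 4, and it was called in every setting. *Hrc*, a histidine-rich calcium-binding protein of the reticulum, measured 357, 171 and 169 in WT and 29.7, 33.9, 6.90 and 57.1 in *Jag2sm* (-2.82 ± 0.530, adjusted p = 0.0123, edgeR). Both genes had their lowest value in *Jag2sm* 3 and, among *Jag2sm*, their highest in *Jag2sm* 4. *Asph* encodes junctin as well as an aspartyl hydroxylase that most cells make, which gene counts do not separate, and measured 190.2, 123 and 99.6 in WT and 72.1, 98.1, 61.1 and 92.1 in *Jag2sm*. Its groups were close without overlapping, and the log2 fold change of -0.69 ± 0.265 was not called (adjusted p = 0.172, edgeR).

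Of the 3 modulators of the release channel, only *Camk2a* was called. *Camk2a*, a calcium/calmodulin-dependent kinase gene whose locus also makes a muscle anchoring protein, measured 190.2, 35.6 and 44.6 in WT and 7.07, 8.98, 2.46 and 17.9 in *Jag2sm*. Its WT mean leaned on WT 1, and the log2 fold change of -3.00 ± 0.688 (adjusted p = 0.0284, edgeR) was -2.19 without WT 1 and -3.60 without *Jag2sm* 4. The call was lost without *Jag2sm* 1 or *Jag2sm* 2 (adjusted p = 0.0683 and 0.0852, within 9.44e-15 to 0.0852 over the other settings). *Camk2d*, the kinase gene of broader expression, measured 156, 125 and 64.5 in WT and 76.4, 60.1, 102 and 48.9 in *Jag2sm*, with overlapping groups (-0.60 ± 0.332, adjusted p = 0.356, edgeR). *Fkbp1a*, an immunophilin of most cells that binds the release channel, measured 415, 426 and 427 in WT and 516, 373, 376 and 419.8 in *Jag2sm*. Its groups overlapped, and its log2 fold change was -0.01 ± 0.213 (adjusted p = 0.997, edgeR), with a sign that turned under library size alone, DESeq2 and no filter and without WT 2, *Jag2sm* 2 or *Jag2sm* 3.

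Both genes of store-operated entry, by which an emptied reticulum draws calcium from outside, were called lower. *Stim1*, the sensor of the store, measured 213, 48.5 and 58.8 in WT and 11.3, 18.7, 21.2 and 31.8 in *Jag2sm*. WT 1 stood far above WT 2 and WT 3, and the log2 fold change of -2.05 ± 0.505 (adjusted p = 0.0380, edgeR) was -1.34 without it. The call was lost without *Jag2sm* 1, *Jag2sm* 2 or *Jag2sm* 3 (adjusted p = 0.0885, 0.109 and 0.0653, within 8.71e-09 to 0.109 over the other settings). *Orai1*, the plasma membrane channel that *Stim1* opens, measured 109.5, 52.4 and 40.8 in WT and 24.0, 17.3, 8.87 and 21.2 in *Jag2sm*. Its groups did not overlap (-1.79 ± 0.403, adjusted p = 0.0265, edgeR), and the call was lost without WT 2 or *Jag2sm* 2 (adjusted p = 0.0708 and 0.0832, within 4.44e-06 to 0.0832).

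Genes of membrane excitability and the cytosolic buffer were near the limit of detection. *Scn4a*, the sodium channel of the muscle action potential, measured 57.6, 11.6 and 10.4 in WT and 1.41, 0.691, 0.493 and 4.08 in *Jag2sm*, from 39 counts over the WT libraries and 8 over the *Jag2sm* libraries. It was called (-3.44 ± 0.815, adjusted p = 0.0318, edgeR), with -2.80 without WT 1 and -4.36 without *Jag2sm* 4, and the call was lost without WT 2, *Jag2sm* 1, *Jag2sm* 2 or *Jag2sm* 3 (adjusted p = 0.0561, 0.0657, 0.0972 and 0.0650, within 2.81e-06 to 0.0972). The members that set the resting potential or buffer calcium in adult fibres were not tested. *Clcn1*, the chloride channel, had 3 counts over the WT libraries and 3 over the *Jag2sm* libraries, and *Kcnj2*, an inward rectifier potassium channel, had 7 counts over the WT libraries and 1 over the *Jag2sm* libraries. *Pvalb*, the calcium buffer of fast fibres, had 10 counts over the WT libraries and 10 over the *Jag2sm* libraries, so differences in these genes were not detectable at this depth.

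Among the 20 called members the libraries kept a common order. WT 1 was the highest of all libraries in 19 of them. Within *Jag2sm*, *Jag2sm* 3 was the lowest in 15 and *Jag2sm* 4 the highest in 17. The median difference from the WT mean was -2.79, -2.68, -4.04 and -1.97 on the log2 scale in *Jag2sm* 1, 2, 3 and 4. *Jag2sm* 3 was also the lowest and *Jag2sm* 4 the highest *Jag2sm* library in the summed differentiated muscle genes (1821 and 7612), and WT 1 was the highest WT library there (43844). Without WT 1, 19 of the 20 were still called, and their median log2 fold change was -2.69 instead of -3.06. How many of all genes called lower kept the same library order was not counted, so it cannot be called particular to the members.

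**Figure D2:**
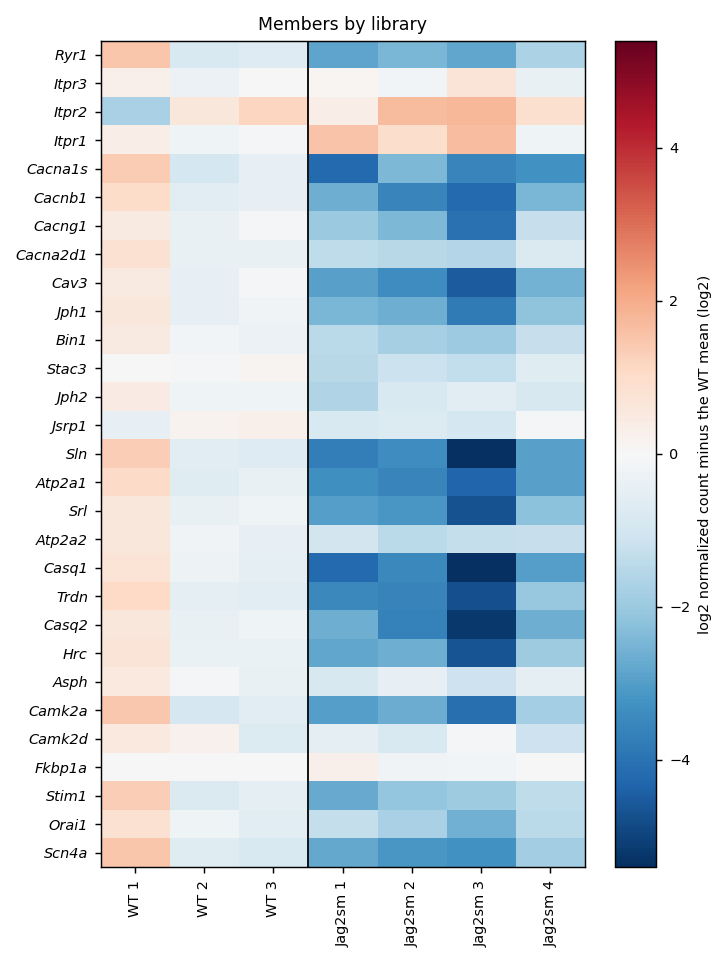
Rows are the 29 tested members and columns the 7 libraries, and colour is the log2 normalized count minus the mean of the WT libraries (blue lower, red higher). *Jag2sm* 3 is the darkest blue column for most called members, with a median of -4.04 against -1.97 in *Jag2sm* 4, and WT 1 is the reddest WT column.

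Batch numbers in the labels run alongside the replicate numbers, so batches 1, 2 and 3 each hold 1 WT and 1 *Jag2sm* library and *Jag2sm* 4 stands alone; what a batch number marks is not stated. Since the groups do not overlap in any called member, a lower value within each batch follows from that order and adds nothing to it. The median log2 differences within a batch, given for their size, were -3.61 in batch 1, -2.25 in batch 2 and -3.71 in batch 3, with no replicate within a batch.

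**Figure D3:**
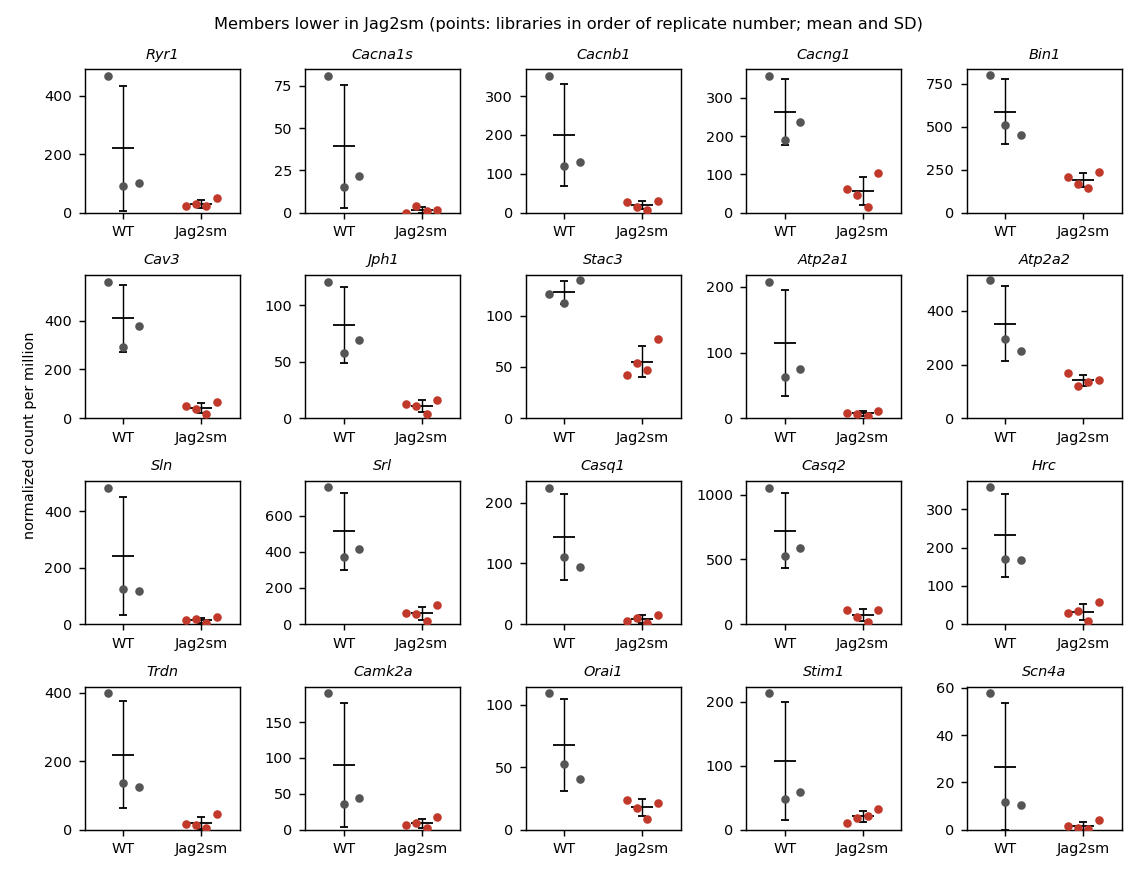
Each panel is 1 of the 20 called members, with the normalized count (CPM) on a linear axis from 0, points for libraries, a bar for the mean and whiskers for the SD (n = 3 WT and 4 *Jag2sm*, whiskers stop at 0). The WT and *Jag2sm* points do not overlap in any panel, and WT 1 is the top point in every panel but that of *Stac3*.

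Some members come in pairs in which 1 gene is typical of fast or mature skeletal muscle and the other of slow, developing or other muscle, and the share of the first within a library does not depend on normalization. Each pair was compared by a two-sided exact permutation test on the log2 ratio over the 35 arrangements of the 7 labels, which allow no p below 0.0286, with adjustment over 4 pairs. *Atp2a1* made up 28.8%, 17.3% and 23.2% of the counts on *Atp2a1* and *Atp2a2* in WT and 4.76%, 5.41%, 2.48% and 7.45% in *Jag2sm*. The groups did not overlap, and the log2 ratio was lower by a difference of -2.51 (exact permutation p = 0.0286, adjusted p = 0.114). *Jph1* made up 30.0%, 24.7% and 28.2% of the counts on *Jph1* and *Jph2* in WT and 16.1%, 8.79%, 2.73% and 12.7% in *Jag2sm*. These groups were apart as well, with a log2 difference of -1.99 (exact permutation p = 0.0571, adjusted p = 0.114).

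For the other pairs the groups overlapped. *Casq1* made up 17.6%, 17.4% and 13.8% of the counts on *Casq1* and *Casq2* in WT and 5.00%, 16.1%, 8.11% and 12.3% in *Jag2sm*, a log2 difference of -0.77 (exact permutation p = 0.143, adjusted p = 0.190). Both calsequestrin genes thus fell, and a change in their ratio was not detectable here. *Ryr1* made up 98.8%, 98.6% and 95.5% of the counts on *Ryr1* and *Ryr3* in WT and 88.2%, 97.6%, 95.7% and 98.4% in *Jag2sm*, with a log2 difference of -1.07 (exact permutation p = 0.257, adjusted p = 0.257). With 17 counts on that pair in *Jag2sm* 1, its share had a 95% exact binomial interval of 63.6% to 98.5%, which covers counting error only.

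**Figure D4:**
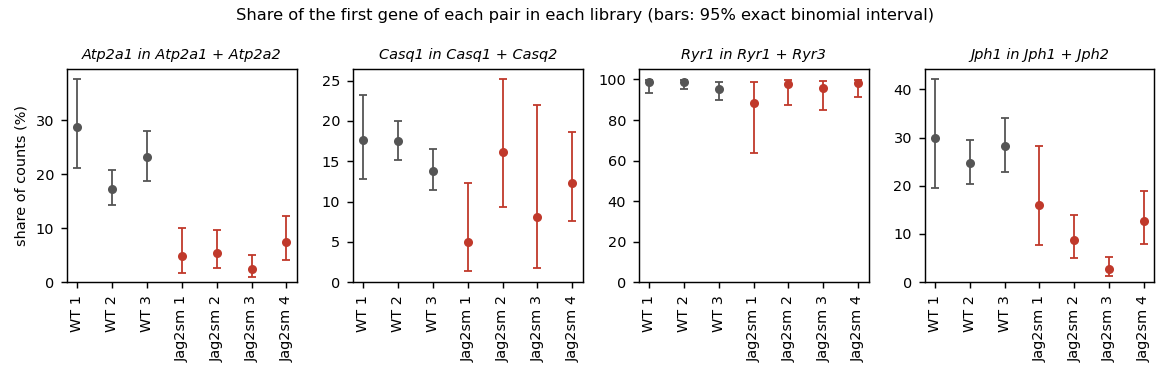
The vertical axis is the percentage of counts on the first gene of each pair in each library, with 95% exact binomial (Clopper-Pearson) intervals. For *Atp2a1* and *Jph1* all *Jag2sm* points lie below all WT points (2.48% to 7.45% against 17.3% to 28.8% for *Atp2a1*), while for *Casq1* and *Ryr1* the groups overlap.

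A wider list of 48 calcium handling genes, made up of paralogs of the members, other pump regulators, store and release-site proteins, further entry and extrusion proteins, calmodulins, mitochondrial uptake and T-tubule membrane proteins, had 31 tested genes. Of the 48 genes, 16.7% (8 genes, all among the 31 tested) were called lower, against 4.84% of all genes tested. No gene of the list was called higher, against 1.42%. At an unadjusted p under 0.05, edgeR gave 11 lower and 3 higher, and DESeq2 and limma-voom again called 0 higher. For the unadjusted threshold, the share of all genes tested was not counted. This list, too, was made with earlier results of these data known. The median log2 fold change of the tested genes was -0.22, nearer to that of all genes than the median of the members.

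The store and release-site group held 4 of the 8 calls. *Sypl2* encodes mitsugumin, a triad membrane protein, and measured 196, 26.5 and 28.5 in WT and 1.41, 1.38, 1.48 and 1.63 in *Jag2sm* (-5.28 ± 0.852 on the log2 scale, adjusted p = 0.00686, edgeR). The *Jag2sm* values amount to 8 counts in all, *Sypl2* passed the filter only through WT libraries, and the log2 fold change was -4.14 without WT 1 and -5.87 without WT 2. *Tmem38a* and *Tmem38b* encode the potassium channels that balance charge across the reticulum during release. *Tmem38a* measured 375, 177 and 201 in WT and 35.3, 20.7, 8.38 and 53.0 in *Jag2sm* (-3.08 ± 0.502, adjusted p = 0.00698, edgeR). *Tmem38b*, the form found in most tissues, measured 127, 76.9 and 87.3 in WT and 24.0, 21.4, 10.8 and 37.5 in *Jag2sm* (-2.00 ± 0.365, adjusted p = 0.0109, edgeR). *S100a1*, a calcium-binding protein that acts on the release channel and the pump, measured 190.2, 84.7 and 95.8 in WT and 49.5, 22.8, 25.1 and 19.6 in *Jag2sm* (-2.01 ± 0.363, adjusted p = 0.0106, edgeR). In all 4 genes every *Jag2sm* library lay below every WT library.

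The other 4 calls came from separate groups. *Mrln*, which encodes the pump-inhibiting peptide myoregulin, measured 17.3, 19.4 and 27.5 in WT and 4.24, 2.07, 2.46 and 8.97 in *Jag2sm* (-2.38 ± 0.482, adjusted p = 0.0162, edgeR). It had only 1 *Jag2sm* library over the filter cutoff, so the filter favoured a lower level there as well. It was -3.01 without *Jag2sm* 4, and the call was lost without WT 2, WT 3 or *Jag2sm* 2 (adjusted p = 0.0604, 0.112 and 0.0531, within 3.28e-05 to 0.112 over the other settings). In the remaining 3 genes, too, the groups did not overlap. *Stim2*, the other store sensor, measured 92.2, 87.9 and 87.3 in WT and 35.3, 47.7, 39.4 and 41.6 in *Jag2sm* (-1.10 ± 0.191, adjusted p = 0.00919, edgeR), with little spread in either group. *Mcu*, the pore of the mitochondrial calcium uniporter, measured 179, 94.4 and 92.0 in WT and 19.8, 31.8, 38.9 and 37.5 in *Jag2sm* (-1.77 ± 0.293, adjusted p = 0.00743, edgeR). *Dysf*, the membrane repair protein dysferlin, measured 46.1, 30.4 and 38.9 in WT and 12.7, 8.98, 8.87 and 10.6 in *Jag2sm* (-1.85 ± 0.278, adjusted p = 0.00539, edgeR). *Stim2*, *Mcu* and *Dysf* were called in each setting.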

How the data were processed

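RNA of 3 WT and 4 homozygous *Jag2sm* MuSC samples was measured by Nanopore direct cDNA sequencing. The authors aligned reads with minimap2 2.17 to GRCm39 and counted them on genes with HTSeq; the deposited files hold raw counts per gene and library, without normalization. The annotation release and strand setting are not given in the sources used here, so counts of the 20 members whose exons overlap another gene are uncertain. HTSeq summary lines (44.99% to 75.2% of reads) were left out. A deposited DESeq2 table of the same comparison, with fold changes and p-values, was not used.

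Identifiers were matched to GENCODE M39 (56017 of 56748). Genes were filtered with filterByExpr in edgeR 4.0.16 (R 4.3.3; minimum count 10, minimum total 15; cutoff 8.17 CPM in 3 libraries), normalized by TMM and tested by glmQLFit and glmQLFTest without covariates, with Benjamini-Hochberg adjustment over 9489 genes. The standard error is the log2 fold change divided by the square root of F. Biological CV was 0.263. Log2 normalized counts used a prior count of 2, and pair ratios added 0.5 to each count. Permutation tests used Python 3.11.15 and SciPy 1.17.1. The model was run on simulated counts with the same biological CV for every gene, and the permutation test on made-up values in separated groups. Both are checks of the code and do not test these data. Alternatives were DESeq2 1.42.0, limma-voom (3.58.1), DESeq2 size factors, library size alone, no filter, the replicate block, each library left out, and, for pairs, 1 added to each count. Same-numbered libraries deviated together at correlations of 0.0740, 0.0144 and 0.0539 only, so the main fit was unpaired.

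The members, related genes and marker lists were chosen with earlier results of these data known. All members are named, and related genes are named where they passed the test. Promoters were read from GRCm39.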

Additional observations from a re-analysis of the deposited data

How the results depend on the processing

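With DESeq2, 21 members were called lower, with no filter 22, and with limma-voom, DESeq2 size factors or library size alone 20. Leaving out 1 library gave 12 (without *Jag2sm* 2) to 21 (without *Jag2sm* 4) called lower and 0 to 1 called higher (*Itpr1*, without *Jag2sm* 4). *Itpr1* passed the filter only through *Jag2sm* libraries. Of the 20 called, 12 were called in every setting. Same-numbered libraries deviated together only weakly, but they were not compared with differently numbered ones, so pairing is not excluded. The replicate block gave 21 members and 9 related genes called lower, with 0 higher in both lists. *Jag2sm* 4 is alone in its block and adds nothing to that contrast. Related genes called higher numbered 2 with library size alone (*Orai2*, *Cav1*), 3 with no filter (with *Atp2b4*) and 0 to 1 over the left-out libraries (*Atp2b4*, without *Jag2sm* 3). The sign of *Fkbp1a* turned with DESeq2 (0.0239), library size alone (0.155) and no filter (0.0334), and without WT 2, *Jag2sm* 2 or *Jag2sm* 3 in a range over left-out libraries of -0.113 to 0.0547, and that of *Itpr3* turned without *Jag2sm* 3 in a range of -0.0669 to 0.482. Over all genes tested, 594 were called, 1248 with no filter, 343 without WT 2, 341 without WT 3 and 251 without *Jag2sm* 2; the cause was not tested. Library size alone moved the median of all genes by 0.16 on the log2 scale. The other single-member values comprised 339 with the same direction and call, 22 that lost the call and 6 that gained it. The depth of WT 1 limits low members most: 3 counts there are 17.3 normalized counts.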

Other observations

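In the wider list, 4 tested genes had every *Jag2sm* library above every WT library (10.3% of all genes tested had this order). *Atp2b4* passed the filter only through *Jag2sm* libraries and *Cav1* with 1 WT library over the cutoff, so the count says nothing of the list. They were *Orai2*, a store-operated channel subunit, *Cav1*, the caveolin of most cells, *Atp2b4*, a plasma membrane calcium pump, and *Calm2*, a calmodulin gene. *Orai2* measured 23.1, 28.4 and 21.8 in WT and 86.3, 44.9, 51.2 and 40.8 in *Jag2sm* (1.12 ± 0.317, adjusted p = 0.0652, edgeR). *Cav1* measured 5.76, 13.6 and 7.59 and 36.8, 24.2, 24.6 and 17.9 (1.28 ± 0.370, adjusted p = 0.0692, edgeR). *Atp2b4* measured 0, 6.46 and 4.74 and 19.8, 20.7, 7.88 and 23.6 (1.73 ± 0.536, adjusted p = 0.0888, edgeR). The genes were chosen for mention after their values were seen, and these differences were not called, but other settings called them higher. *Orai2* passed with library size alone and with no filter (adjusted p = 0.0437 and 0.00999, in a range of 0.00999 to 0.255), and so did *Cav1* (adjusted p = 0.0482 and 0.0269, in a range of 0.0269 to 0.290). *Atp2b4* passed with no filter and without *Jag2sm* 3 (adjusted p = 0.0105 and 0.0172, in a range of 0.0105 to 0.279). *Calm2*, not called in any setting, measured 161, 523 and 563 and 694, 565, 704 and 635 (0.61 ± 0.357, adjusted p = 0.384, edgeR).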
